A study of Mus musculus with 12 samples.

Results

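Nos2, the epithelial NADPH oxidase genes and their partners were followed in RNA of large intestinal crypts from 3-month-old C57BL/6 mice. The 8 genes were chosen by symbol, as makers of nitric oxide, superoxide or hydrogen peroxide in epithelium and the proteins that work with them: Nos2, Nox1, Noxa1, Noxo1, Cyba, Duox2, Duoxa2 and Gpx2. All 8 were found, out of 28793 genes in the table, and each had a value in all 12 libraries. Unsorted crypt epithelium gave 6 libraries: 2 from mTert heterozygous mice, 2 from generation 4 mTert null animals (null G4), and 2 of generation 4 whose label says telomerase was reactivated. Cells sorted by GFP, which the series calls CBC cells (short for crypt base columnar, the stem cell type of the crypt floor), gave the other 6: 3 from mTert heterozygous mice and 3 from mTert null mice of generation 3 (null G3). The labels do not say which gene drives GFP or which part of Tert is missing. How telomerase was reactivated is not spelled out there either, beyond the tag G4tam in the descriptions of the pair labelled reactivated. Replicates are called biological there, but no animal is identified, so a p-value here reflects spread among libraries only and that spread may be technical.

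Nos2 is the inducible nitric oxide synthase, which makes nitric oxide from arginine with the help of tetrahydrobiopterin. Nox1 moves electrons from NADPH across the membrane to oxygen and yields superoxide. It works with the membrane subunit Cyba, the activator Noxa1, the organizer Noxo1 and a Rac GTPase. Duox2 yields hydrogen peroxide at the apical surface once its maturation factor Duoxa2 has carried it out of the endoplasmic reticulum, and Gpx2 is an epithelial glutathione peroxidase that removes peroxide. In the intestine these enzymes are known for defence against microbes at the mucosal surface, and several are known to be induced by inflammatory cytokines and microbial signals.

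The steps between low RPKM values (reads per kilobase of gene, scaled to library depth) implied about 75000000 to 103000000 reads in each unsorted library. In the sorted set the implied depth was about 163300000 to 246000000 reads, with a less regular step. Mitochondrial ribosomal RNA held 19.2% and 27.3% of summed RPKM in the heterozygous unsorted libraries and 10.8% to 16.7% in the other 4. In sorted libraries it held 38.7% to 53.6% in heterozygous cells and 46.8% to 71.9% in those labelled null G3, with the highest share in replicate 1, where 5424 genes reached 1 RPKM against 7721 to 9144 in the other 5. Tert itself, which encodes the reverse transcriptase of telomerase, was at 0.459 and 0.251 RPKM in heterozygous unsorted libraries and at 0.00778 and 0.0377 RPKM in null G4. The libraries labelled reactivated had 0.0171 and 0.0311 RPKM, within the null G4 range, so that label was not matched by the level of Tert. Among sorted libraries Tert was at 0.0424, 0.0583 and 0.169 RPKM in heterozygous cells and at 0, 0.0787 and 0.00131 RPKM in those labelled null G3. Replicate 2 labelled null G3 thus lay within the heterozygous range. Replicate 1 labelled null G3 stood apart: the small intestinal gene Sis was at 372 RPKM, against 1.37 to 2.003 RPKM in the other 5 sorted libraries, and the stem cell marker Lgr5 was at 0.121 RPKM, against 3.40 to 4.74 RPKM. Y-linked transcripts summed to 18.3 and 18.9 RPKM in heterozygous unsorted libraries, to 0.0148 and 0.00791 RPKM in null G4, and to 0.00647 and 18.2 RPKM in replicates 1 and 2 labelled reactivated. Null G4 and heterozygous unsorted libraries therefore differed in sex as well as in genotype and generation. Among sorted libraries replicate 2 labelled null G3 alone had such transcripts, at 8.54 RPKM.

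Promoter windows were found for 7 of the 8 genes in RefSeq (GRCm38.p6), each from 250 bases before to 50 bases after the annotated start. Nos2 had no window there, so its promoter was not searched for motifs. The windows of 4 genes are shown because these genes passed the test in unsorted null G4 crypts, as Nos2 also did. Capitals mark motif matches: NF-kB in Nox1, the CCAAT box read from the other strand in Duox2 and Gpx2, the TATA box TATAAA in Duoxa2, and the antioxidant element TGANNNNGC on either strand in Duoxa2 and Gpx2.
Nox1 (chrX:134111805-134112104, minus strand): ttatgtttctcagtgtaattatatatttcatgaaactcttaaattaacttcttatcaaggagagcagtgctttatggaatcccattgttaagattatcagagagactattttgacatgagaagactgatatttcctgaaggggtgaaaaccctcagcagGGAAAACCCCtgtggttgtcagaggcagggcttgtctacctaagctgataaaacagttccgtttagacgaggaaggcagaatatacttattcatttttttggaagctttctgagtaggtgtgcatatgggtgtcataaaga
Duox2 (chr2:122298178-122298477, minus strand): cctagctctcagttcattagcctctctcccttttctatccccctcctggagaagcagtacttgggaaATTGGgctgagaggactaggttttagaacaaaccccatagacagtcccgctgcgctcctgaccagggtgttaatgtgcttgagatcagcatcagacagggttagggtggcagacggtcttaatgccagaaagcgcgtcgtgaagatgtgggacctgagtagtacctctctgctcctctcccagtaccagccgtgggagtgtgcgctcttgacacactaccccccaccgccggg
Duoxa2 (chr2:122298650-122298949, plus strand): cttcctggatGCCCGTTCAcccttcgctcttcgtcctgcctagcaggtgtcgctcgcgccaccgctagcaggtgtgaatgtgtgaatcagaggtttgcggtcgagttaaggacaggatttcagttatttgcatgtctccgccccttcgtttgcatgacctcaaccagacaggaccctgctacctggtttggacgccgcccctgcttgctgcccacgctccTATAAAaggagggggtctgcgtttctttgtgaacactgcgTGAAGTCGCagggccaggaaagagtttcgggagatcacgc
Gpx2 (chr12:76795505-76795804, minus strand): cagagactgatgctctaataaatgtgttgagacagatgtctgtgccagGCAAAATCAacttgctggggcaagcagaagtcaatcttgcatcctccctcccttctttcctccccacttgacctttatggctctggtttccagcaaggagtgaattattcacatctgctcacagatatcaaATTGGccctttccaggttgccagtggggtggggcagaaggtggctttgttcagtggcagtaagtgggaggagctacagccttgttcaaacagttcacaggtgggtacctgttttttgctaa

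In the Nox1 window the NF-kB match lay on the opposite strand, with its first base at position -91 from the start. Of the 7 windows, that of Noxa1 held the other NF-kB match, at -249. RefSeq and GENCODE starts can differ: the RefSeq start of Nox1 lies inside the longer GENCODE span given for the gene. The TATA box of Duoxa2 began at -30, and its antioxidant matches at -240 and 11. The CCAAT match began at -183 in Duox2 and at -71 in Gpx2, and the antioxidant match of Gpx2 at -202. Noxa1 also held a CCAAT match and antioxidant matches, and Noxo1 and Cyba held none of the motifs. Neither the gamma-activated site TTCNNNGAA nor the interferon-stimulated element GAAANNGAA was in any of the 7 windows. Both strands were searched, and no matches at different positions shared a base. The NF-kB match of Noxa1 matched on both strands. Of all 32851 promoters given there 8.46% held the NF-kB motif, 8.30% the gamma-activated site and 8.56% the interferon-stimulated element. TATAAA was in 13.6% of them, CCAAT in 37.4% and the antioxidant element in 41.3%. A match describes the letters of the window and is not a measured binding site.

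The first comparison asked how unsorted crypts of null G4 mice differed from heterozygous ones. Nos2, Nox1, Duox2, Duoxa2 and Gpx2 rose, so that 5 of the 7 genes with a test were called higher and none lower, where 4.97% of all 11464 genes tested were called higher. Nos2 changed most, from below 1 RPKM to about 10 RPKM, and the mean RPKM of the oxidase cores Nox1 and Duox2 was 4.28 and 3.89 times the heterozygous mean. The partners Noxa1 and Cyba had positive differences that missed the threshold, and Noxo1 was too low to be tested. Median log2 difference was 1.89 over the 7 genes and 0.36 over all genes tested. The all-gene median fell to 0.02 after quantile normalization and to 0.00 after median scaling, so the differences minus that median are given too: 2.60 for Nos2, 1.89 for Duoxa2, 1.60 for Nox1, 1.52 for Duox2, 0.90 for Gpx2, 0.51 for Cyba and 0.25 for Noxa1.

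Nos2 (ENSMUSG00000020826, chr11:78920787-78960254) was at 0.240 and 0.549 RPKM in the heterozygous unsorted libraries and at 9.60 and 10.01 RPKM in null G4. It was at 7.36 and 7.50 RPKM in the libraries labelled reactivated. The 3 groups were apart from each other, with the heterozygous pair lowest, the null G4 pair highest, and little spread inside the null G4 pair and the pair labelled reactivated. Means were 0.394 ± 0.219, 9.81 ± 0.284 and 7.43 ± 0.0960 RPKM in that order (SD, n = 2 each). On the log2(RPKM + 1) scale null G4 exceeded heterozygous by 2.96 (SE 0.16, 95% interval 2.60 to 3.32, adjusted p = 5.5e-05 in limma with Benjamini-Hochberg adjustment, n = 2 per group). That scale understates the change of a gene this low, and the ratio of mean RPKM was 24.9. Nos2 reached the test only through the groups where it was high, since both heterozygous values lay under 1 RPKM. It ranked 20 among the 11464 differences, from the highest. The heterozygous values correspond to about 92.7 and 215 reads, and the null G4 values to about 3178 and 4445.

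**Figure D1:**
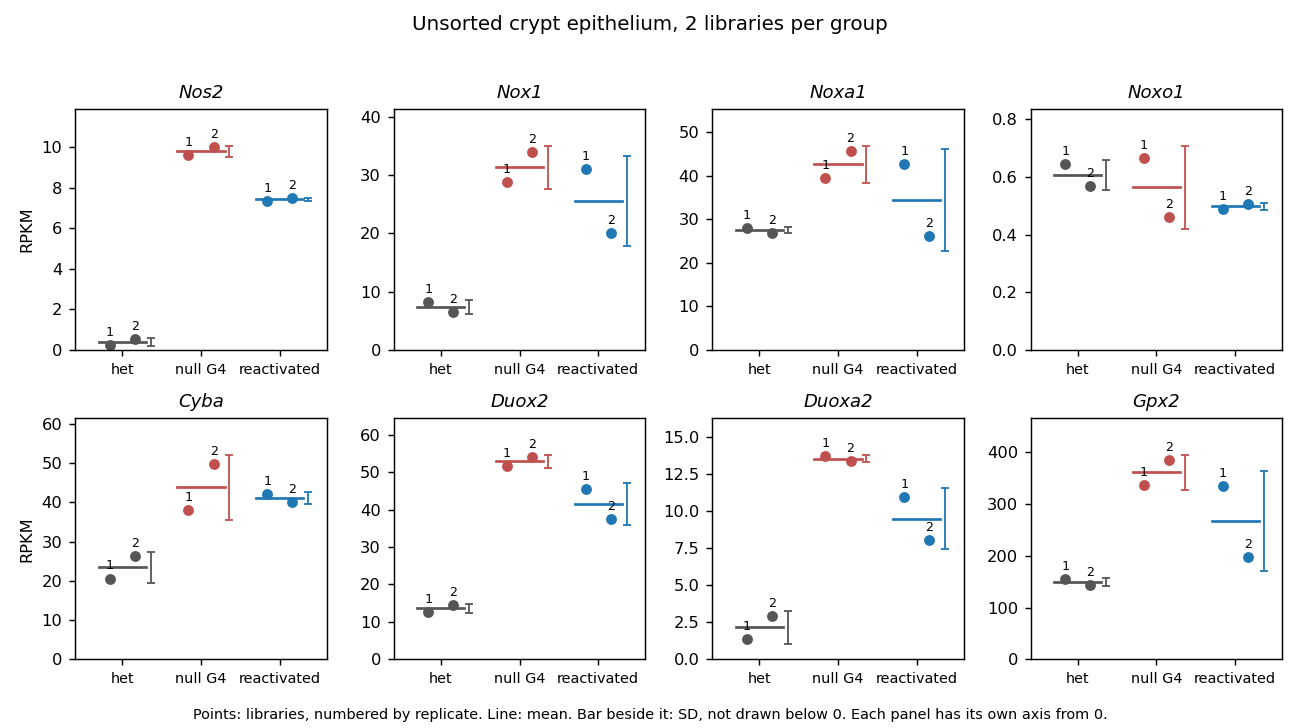
RPKM (vertical axis, from 0, a separate scale per gene) of the 8 genes in the 6 unsorted libraries, with heterozygous (het), null G4 and reactivated groups side by side. Points are libraries, lines are means and bars are SDs. Nos2 runs from below 1 RPKM in het to about 10 RPKM in null G4, while the Noxo1 groups lie together.

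Nox1 (ENSMUSG00000031257, chrX:134086421-134221956), the superoxide-forming subunit, was at 8.19 and 6.47 RPKM in heterozygous unsorted libraries, at 28.7 and 34.0 RPKM in null G4, and at 30.9 and 20.1 RPKM in those labelled reactivated. Both heterozygous libraries lay below the other 4, and the pair labelled reactivated spread the most. The difference of null G4 from heterozygous was 1.96 (SE 0.25, adjusted p = 0.00475 in limma, n = 2 per group). Of Nox1 exon bases 12.1% are shared with Cstf2 on the other strand, which was at 3.87 to 8.35 RPKM. Noxa1 (ENSMUSG00000036805, chr2:25085667-25095149), whose protein activates Nox1, was at 28.0 and 27.0 RPKM in the heterozygous pair, 39.6 and 45.7 RPKM in null G4 and 42.8 and 26.2 RPKM in libraries labelled reactivated. Its null G4 pair lay above the heterozygous pair, but replicate 2 labelled reactivated was the lowest of the 6. The Noxa1 difference of 0.61 (SE 0.26) had an adjusted p of 0.106 in limma's fit and was 0.08 after quantile normalization. Within a library, where scaling cancels, the ratio of Nox1 to Noxa1 was 0.293 and 0.240 in the heterozygous pair, 0.726 and 0.743 in the null G4 pair, and 0.723 and 0.765 in libraries labelled reactivated. That ratio was higher in each of those 4 libraries than in either heterozygous one.

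Noxo1 (ENSMUSG00000019320, chr17:24696234-24700529), the organizer of the Nox1 complex, was at 0.645 and 0.570 RPKM in the heterozygous pair, 0.666 and 0.461 RPKM in null G4 and 0.489 and 0.507 RPKM in libraries labelled reactivated. No library reached the 1 RPKM needed for a test. The heterozygous and null G4 values overlapped, and the pair labelled reactivated lay just below both heterozygous values. In GENCODE M21 70.4% of Noxo1 exon bases are shared with Tbl3 on the other strand, which was at 3.34 to 5.71 RPKM, and without a stated strand setting the reads of both genes cannot be told apart. Cyba (ENSMUSG00000006519, chr8:122424776-122432930), the membrane subunit that stabilizes the oxidase, was at 20.6 and 26.3 RPKM in the heterozygous pair, 38.0 and 49.6 RPKM in null G4 and 42.2 and 39.99 RPKM in libraries labelled reactivated. The heterozygous pair again lay below the other 4. The difference of 0.87 (SE 0.23) missed the threshold, with an adjusted p of 0.0542 in limma's fit.

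Duox2 (ENSMUSG00000068452, chr2:122279247-122298449) and Duoxa2 (ENSMUSG00000027225, chr2:122298900-122302885) are neighbours that point away from each other, with starts 451 bases apart in GENCODE M21. Duox2, the hydrogen peroxide-forming oxidase, was at 12.7 and 14.5 RPKM in the heterozygous pair, 51.7 and 54.1 RPKM in null G4 and 45.4 and 37.6 RPKM in libraries labelled reactivated. Duoxa2, its maturation factor, was at 1.37 and 2.94 RPKM in the heterozygous pair, 13.7 and 13.4 RPKM in null G4 and 10.95 and 8.05 RPKM in libraries labelled reactivated. For both genes the 3 groups did not overlap, with heterozygous lowest and null G4 highest. Null G4 exceeded heterozygous by 1.89 for Duox2 (SE 0.21, adjusted p = 0.00271) and by 2.25 for Duoxa2 (SE 0.25, adjusted p = 0.00284), both in limma's fit. The ratio of Duoxa2 to Duox2 within a library was 0.108 and 0.203 in the heterozygous pair, 0.266 and 0.248 in the null G4 pair and 0.241 and 0.214 in libraries labelled reactivated. Of Duoxa2 exon bases 42.8% are shared with Duoxa1 on the other strand, which did not exceed 0.394 RPKM in unsorted libraries.

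Gpx2 (ENSMUSG00000042808, chr12:76792333-76795554), the peroxide-removing member, had the highest level of the 8. It was at 155 and 144 RPKM in the heterozygous pair, 338 and 385 RPKM in null G4 and 335 and 198 RPKM in libraries labelled reactivated. Both heterozygous libraries were the lowest, and replicate 2 labelled reactivated was close to them. The difference of 1.26 (SE 0.30) passed narrowly, with an adjusted p of 0.0498 in limma's fit. It did not pass after quantile normalization (adjusted p = 0.109), median scaling (0.0798), scaling to equal sums without mitochondrially encoded genes (0.0713), no filter (0.168), or with any 1 heterozygous or null G4 library left out (0.0846 to 0.281).

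All 7 tested genes had null G4 values above both heterozygous values, a pattern seen in 74.7% of all genes tested, so that count says little about these genes. The calls split 89.6% higher over all genes, against 58.1% after quantile normalization and 45.7% after median scaling. Nos2, Nox1, Duox2 and Duoxa2 passed under all 3 scalings tried. When either library labelled reactivated was left out, Noxa1 and Cyba passed as well. Those fits called far more of all genes than the fit with both of them, so the calls say little about Noxa1 and Cyba. A term for sex rests on the gap inside the pair labelled reactivated alone, because neither the heterozygous nor the null G4 pair mixed sexes. Anything else that differed inside the pair labelled reactivated enters that term as well. With the term, only Nos2 passed (2.99, adjusted p = 0.0111 in limma's fit), and Duox2 (1.62, 0.0936), Duoxa2 (1.85, 0.181) and Nox1 (1.36, 0.180) did not. Without the low-value filter, too, Nos2 alone passed (adjusted p = 0.0232). In RPKM, which is per length, the mean order in heterozygous crypts was Gpx2, Noxa1, Cyba, Duox2, Nox1, Duoxa2, Noxo1 and Nos2, and no neighbours in that order overlapped. In null G4 it was Gpx2, Duox2, Cyba, Noxa1, Nox1, Duoxa2, Nos2 and Noxo1, and among neighbours only Cyba and Noxa1 overlapped. The libraries labelled reactivated had that same order of means, with overlap between neighbours from Duox2 through Cyba and Noxa1 to Nox1.

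**Figure D2:**
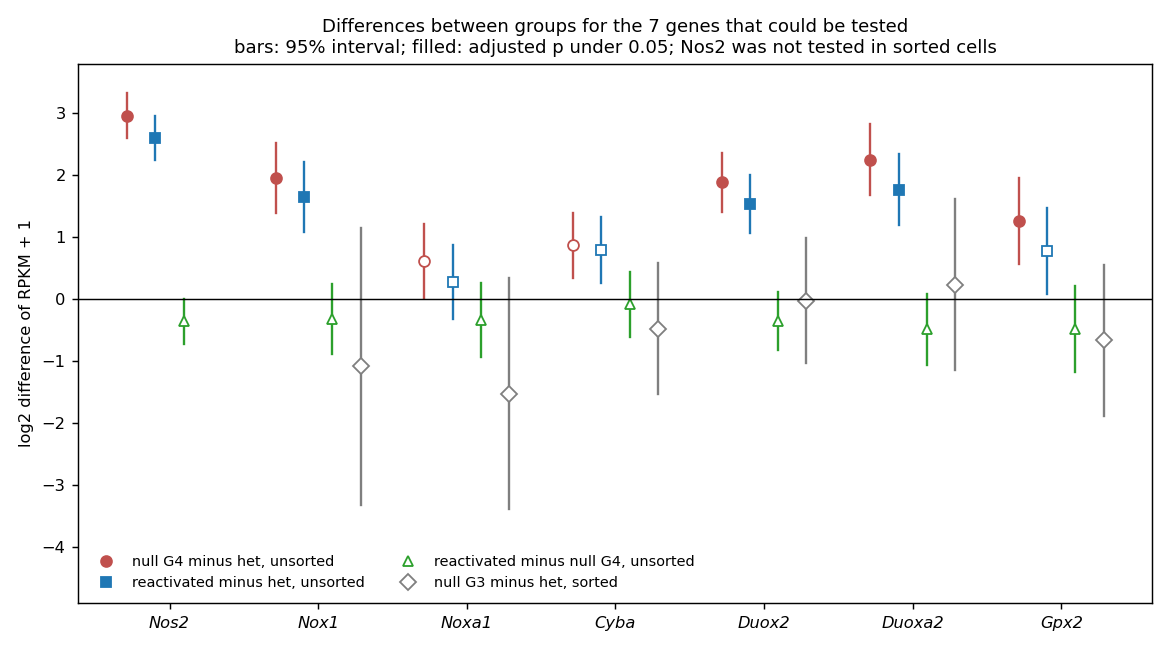
Log2 differences (vertical axis) of the 7 genes that could be tested, for 4 comparisons, with 95% intervals from limma; filled symbols had an adjusted p under 0.05. Nos2, Nox1, Duox2 and Duoxa2 are filled for both comparisons with heterozygous unsorted crypts, and all open symbols of the sorted comparison have intervals that cross 0.

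Further comparisons asked how the libraries labelled reactivated differed from null G4 and from heterozygous ones. They share those control libraries, so the values stand side by side and were not correlated. Against null G4, none of the 7 genes passed, where 0.0262% of all genes did (3 of 11464, with 310 at an unadjusted p under 0.05 in limma's fit). Every difference was below 0, from -0.49 for Duoxa2 and -0.48 for Gpx2 to -0.08 for Cyba, with adjusted p from 0.833 to 0.918. The Nos2 difference was -0.36 (95% interval -0.72 to 0.00, unadjusted p = 0.0509), and that of Duox2 was -0.35 (-0.82 to 0.12). Nos2, Duox2, Duoxa2 and Gpx2 lay lower in both libraries labelled reactivated than in either null G4 library, 4 of 7 genes against 25.5% of all genes tested. The all-gene median was -0.14, and the Cyba difference turned positive after quantile normalization (0.09) and median scaling (0.07).

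Against heterozygous crypts 4 of the 7 genes rose in the libraries labelled reactivated, where 1.13% of all genes tested were called higher. These were Nos2 (2.60, SE 0.16, adjusted p = 1.5e-04), Nox1 (1.65, SE 0.25, 0.0179), Duox2 (1.54, SE 0.21, 0.0101) and Duoxa2 (1.77, SE 0.25, 0.0132), all in limma's fit with n = 2 per group. The mean RPKM of Nos2 was 18.8 times the heterozygous mean. Gpx2 (0.78, 0.321), Cyba (0.79, 0.210) and Noxa1 (0.28, 0.517) did not pass. Values of 6 of the 7 genes lay above both heterozygous values, against 46.7% of all genes tested, and Noxa1 was the exception.

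The pair labelled reactivated differed in sex, and replicate 2, with Y-linked transcripts, had the lower Nox1, Noxa1, Duox2, Duoxa2 and Gpx2. Nos2 was 7.36 and 7.50 RPKM, so it did not share that gap. With replicate 1 left out, the comparison is between libraries that all express Y-linked genes, and the lone library is assumed to vary like the other groups. Nos2 (2.62, adjusted p = 0.00417 in limma's fit) and Duox2 (1.40, 0.0404) passed there, whereas Nox1 (1.35, 0.0579) and Duoxa2 (1.57, 0.0904) did not. Over all genes, 146 passed with both replicates, 120 without replicate 1 and 2298 without replicate 2. Quantile normalization left Nos2 and Duox2 as the genes that passed, with Nox1 at an adjusted p of 0.0503 and Duoxa2 at 0.0676.

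Genes that supply or restrain Nos2 were read from a list of 22 genes of the nitric oxide pathway, of which 12 could be tested. In null G4 unsorted crypts 3 rose and none fell, where 4.97% of all genes tested rose, with a list median of 0.42 against 0.36 over all genes. Gch1, the first enzyme of tetrahydrobiopterin synthesis, was at 1.65 and 1.88 RPKM in the heterozygous pair and 5.19 and 5.72 RPKM in null G4 (1.22, SE 0.14, adjusted p = 0.00353 in limma's fit). Ass1, which remakes arginine from citrulline, went from 2.86 and 2.25 RPKM to 6.52 and 7.03 RPKM (adjusted p = 0.0195), and Ddah1, which breaks down methylarginines that inhibit nitric oxide synthases, from 6.96 and 7.34 RPKM to 14.8 and 15.0 RPKM (0.0304). In libraries labelled reactivated Gch1 was at 4.88 and 5.02 RPKM. It was the 1 of the 12 that passed there against heterozygous (1.10, adjusted p = 0.00833 in limma's fit), where 1.13% of all genes tested were called higher. Under quantile normalization 1 of the 12 passed in null G4, and with a term for sex none did, where 241 and 69 of all 11464 genes tested passed. The other synthases were near 0: Nos1 did not exceed 0.00608 RPKM and Nos3 0.00474 RPKM in unsorted libraries.

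Other oxidase cores were low in the unsorted libraries. The phagocyte oxidase core Cybb stayed at or below 0.0342 RPKM, Nox3 was at 0 and Duox1 at or below 0.182 RPKM, so Nox1 and Duox2 were the oxidase cores with levels above 1 RPKM. Of 20 tested genes that remove peroxide and superoxide none passed (list median 0.53). The smallest p belonged to Gsr, glutathione reductase, at 26.2 and 30.9 RPKM in the heterozygous pair and 51.6 and 65.2 RPKM in null G4 (adjusted p = 0.0527), and to Txnrd1, thioredoxin reductase (0.0545). Of 16 tested NRF2 factors and targets 1 passed, a share near the 4.97% of all genes called higher: the glutathione transferase Gsta3 (1.02, adjusted p = 0.0373), with a list median of 0.36, equal to that of all genes. In the libraries labelled reactivated the epoxide hydrolase Ephx1 was the 1 of 16 that passed against heterozygous (1.31, adjusted p = 0.0287 in limma's fit). Of all genes tested 1.13% were called higher there. The 1 haem peroxidase that could be tested, Lpo, did not pass (0.59, adjusted p = 0.119).

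Cytokines, receptors and transcription factors known to induce these enzymes formed a list of 39, with 31 tested. In null G4 9 rose and none fell, where 4.97% of all genes tested rose, and the list median was 0.62 against 0.36 over all genes. Those of smallest p included Socs3, a feedback inhibitor of cytokine signalling (1.503, SE 0.14, adjusted p = 0.00132), as well as Cebpd (1.34, 0.0116) and Nfkbiz (1.33, 0.0144), both transcriptional regulators. Socs3 was at 1.39 and 1.09 RPKM in the heterozygous pair, 5.44 and 5.23 RPKM in null G4 and 4.12 and 3.86 RPKM in libraries labelled reactivated, the same order of groups as Nos2. Against heterozygous, 4 of the 31 passed in the libraries labelled reactivated, where 1.13% of all genes tested were called higher. Among the 4 were Socs3, Cebpd and Irf1. Ligands on the list differed widely in level: Ifng did not exceed 0.121 RPKM and Il1b 0.0410 RPKM in unsorted libraries, while Il18 was at 11.6 to 26.5 RPKM. Tnf was 0.166 and 0.283 RPKM in the heterozygous pair, 1.40 and 1.38 RPKM in null G4, and 1.85 and 0.950 RPKM in libraries labelled reactivated, so it reached the test only through the groups where it was higher. Under quantile normalization 4 of the 31 passed in null G4, and 1 with a term for sex, where 241 and 69 of all 11464 genes tested did.

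**Figure D3:**
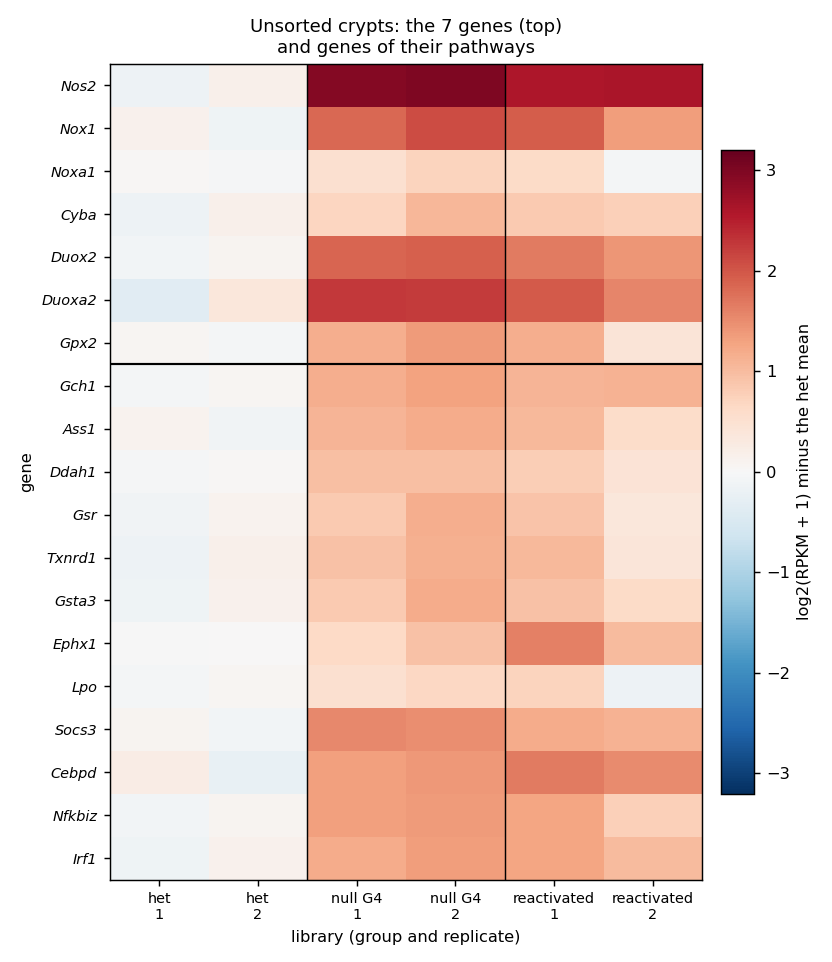
Colour gives log2(RPKM + 1) minus the heterozygous (het) mean for 7 genes (top) and the genes named from their pathways (below), in the 6 unsorted libraries. Nos2 has the deepest red, and replicate 2 labelled reactivated is paler than replicate 1 for Nox1, Noxa1 and Gpx2.

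Markers of other cells were read beside these values, since unsorted crypts can hold immune cells that express Nos2 and in bulk RNA fewer cells of a type and less RNA per cell cannot be told apart. The 14 macrophage markers measured summed to 8.99 and 9.31 RPKM in the heterozygous pair, 24.3 and 29.4 RPKM in null G4 and 23.0 and 17.6 RPKM in libraries labelled reactivated. Cd14, a receptor for bacterial lipopolysaccharide, made up most of each sum (6.37 and 5.59 RPKM in the heterozygous pair, 21.2 and 26.1 RPKM in null G4), and 5 to 9 of the 14 were under 0.1 RPKM. C1qa fell, from 1.498 and 2.18 RPKM to 0.166 and 0.716 RPKM (adjusted p = 0.0498 in limma's fit). The median of the 14 went the other way, from 0.0196 and 0.105 RPKM in the heterozygous pair to 0.168 and 0.152 RPKM in null G4. It was 0.153 and 0.129 RPKM in libraries labelled reactivated. Among the low markers, Csf1r, Cd163 and Fcgr1 did not exceed 0.128, 0.0287 and 0.0262 RPKM in any unsorted library. They were picked from the 14 after their values were seen, and the sum, the median and Cd14 were all higher in null G4. Neutrophil markers summed to 1.81 and 0.859 RPKM in the heterozygous pair and 14.0 and 16.8 RPKM in null G4, nearly all from Ly6g, and 7 to 9 of the 11 were under 0.1 RPKM. Elane and Mpo were at 0 in all 6 unsorted libraries, and S100a8 and S100a9 did not exceed 0.153 and 0.0953 RPKM. Sums of lymphocyte markers were 5.51 and 16.1 RPKM in the heterozygous pair and 3.75 to 8.55 RPKM in the other 4, and those of stromal and endothelial markers 5.15 to 9.20 RPKM in all 6.

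Position along the colon and maturity of the cells were read in the same way. Of 9 tested colon region genes 2 rose in null G4. Over all 11464 genes tested, 4.97% were called higher there and 66 genes were called lower. Hoxb13, a marker of distal colon, was at 25.2 and 14.8 RPKM in the heterozygous pair, 48.1 and 60.5 RPKM in null G4 and 41.6 and 53.4 RPKM in libraries labelled reactivated. Hoxd13 was at 1.02 and 1.22, 6.28 and 7.81, and 3.18 and 8.44 RPKM in the same order. In null G4 both were higher along with Nos2, Nox1, Duox2 and Duoxa2 (adjusted p = 0.0347 and 0.0204 in limma's fit). In libraries labelled reactivated their differences from heterozygous were 1.24 and 1.57 and did not pass (adjusted p = 0.108 and 0.0732 in limma's fit). The other 7 colon region genes did not pass in null G4, with 4 differences below 0 (Aqp8 -0.54, Car1 -0.52, Mettl7b -0.28, Muc2 -0.11), and the list median was 0.07. Small intestinal markers summed to 102 and 311 RPKM in the heterozygous pair, 78.4 and 85.6 RPKM in null G4 and 121 and 89.5 RPKM in libraries labelled reactivated, so heterozygous replicate 2 stood apart. Their list median in null G4 was -1.18, with 1 of 10 tested genes, Rbp2, called lower. Surface colonocyte markers summed to 1689 and 4458 RPKM in the heterozygous pair, 2390 and 2782 RPKM in null G4 and 2355 and 2652 RPKM in libraries labelled reactivated, so the heterozygous pair lay on both sides of the rest. Of 9 deep crypt secretory markers (cells that lie between colonic stem cells) 3 fell and 2 rose in null G4. Among 10 goblet cell markers 2 fell, where 66 of all 11464 genes tested fell. Ang4, an antimicrobial ribonuclease, was at 190.0 and 195 RPKM in the heterozygous pair, 6.04 and 5.09 RPKM in null G4 and 27.7 and 24.8 RPKM in libraries labelled reactivated, the reverse order of the Nos2 groups. The goblet gene Clca3 was at 770.0 and 724 RPKM, 131 and 133 RPKM, and 208 and 190.1 RPKM. The part of cell makeup and colon region in the differences of Nos2 and the oxidases was not tested. The epithelial marker Epcam was at 211 to 414 RPKM in all 6.

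Across the 6 unsorted libraries, the genes whose log2(RPKM + 1) was most like that of Nos2 were Sval1, Upp1, Gch1, Ly6a and Stom, with Pearson's r from 0.9998 down to 0.9978. The points share group differences and depth, 47 genes had an r of 0.99 or more with Nos2, and no p was attached. Upp1, uridine phosphorylase, was at 3.36 and 4.73 RPKM in the heterozygous pair, 50.5 and 59.9 RPKM in null G4 and 41.8 and 45.9 RPKM in libraries labelled reactivated. Most like Nox1 was Cd177, which is also on the deep crypt secretory list, at 60.2 and 48.6, 197 and 235, and 202 and 139 RPKM, followed by H2-T10, Marcks, Myo10 and Slc25a36. Hexokinase Hk2 was most like Duox2 (12.9 and 14.4, 33.6 and 35.8, and 30.5 and 27.4 RPKM), followed by Ripk3, Atp7a, Kdm2a and Zfp239. Reg3b, an antimicrobial lectin, was most like Duoxa2 and had the wider range, from 15.7 and 58.5 RPKM in heterozygous to 1941 and 2228 RPKM in null G4. Among the genes themselves, r over the 6 libraries was 0.993 for Nos2 and Duox2, 0.987 for Duox2 and Duoxa2 and 0.683 for Nos2 and Noxa1.

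Another comparison asked how sorted cells labelled null G3 differed from heterozygous sorted cells. None was called: 0 of the 6 genes with a test passed, and 0 of all 8734 genes (0%), with 143 at an unadjusted p under 0.05 in limma's fit. The median over the 6 genes was -0.57, against -0.46 over all genes, and without replicate 1 labelled null G3 the all-gene median was -0.19. None of the 6 genes had groups without overlap, where 12.6% of all genes tested were lower and 0.114% higher without overlap. Nos2 and Noxo1 did not reach 1 RPKM in the 3 libraries that a test needed.

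Nos2 was at 0.848, 2.14 and 0.523 RPKM in heterozygous sorted cells and at 0.481, 1.10 and 0.782 RPKM in those labelled null G3. The groups overlapped, and no value came near the unsorted null G4 level. Nox1 was at 22.1, 17.9 and 14.2 RPKM in heterozygous cells and at 0.251, 20.1 and 25.5 RPKM in those labelled null G3. The first of these is the library with small intestinal transcripts, and the other 2 lay inside or above the heterozygous range. With it the Nox1 difference was -1.08 (SE 0.99, adjusted p = 0.483 in limma's fit), and without it 0.33 (SE 0.25, 0.867). Noxa1 was at 15.8, 22.5 and 11.1 RPKM in heterozygous cells and 0.355, 6.68 and 18.5 RPKM in those labelled null G3. Replicates 1 and 2 labelled null G3 lay below the heterozygous range of Noxa1, and replicate 3 lay inside it.

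Duox2 and Duoxa2 were highest, not lowest, in replicate 1 labelled null G3. Duox2 was at 16.4, 19.8 and 12.5 RPKM in heterozygous sorted cells and at 26.5, 11.1 and 12.9 RPKM in those labelled null G3. Duoxa2 was at 4.64, 5.67 and 1.69 RPKM and at 13.1, 1.70 and 3.33 RPKM. The ratio of Duox2 to Nox1 was 105 there, against 0.507 to 1.10 in the other 5 sorted libraries. Without it the Duox2 and Duoxa2 differences were -0.39 and -0.45, neither called (adjusted p = 0.867 for each in limma's fit). Cyba was at 5.89, 7.99 and 4.56 RPKM and at 1.74, 4.15 and 8.05 RPKM, and Gpx2 at 151, 197 and 118 RPKM and at 48.8, 113 and 158 RPKM. Both were lowest in replicate 1 labelled null G3. For each, replicate 2 lay just below the heterozygous range, and replicate 3 lay just above it for Cyba and inside it for Gpx2. Noxo1 was at 0.0324 to 0.0898 RPKM in heterozygous cells and at 0.0110 to 0.0239 RPKM in those labelled null G3. Its groups did not overlap, but all values were below 0.1 RPKM.

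**Figure D4:**
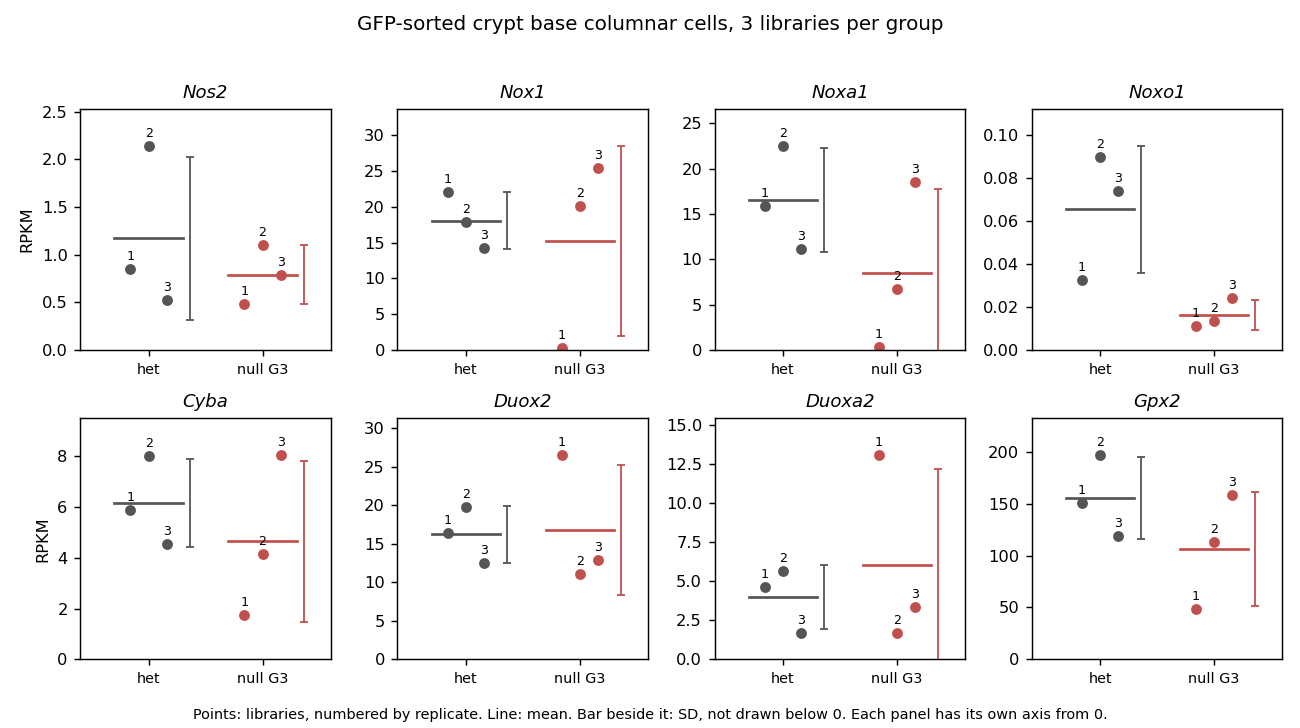
RPKM (vertical axis, from 0, a separate scale per gene) of the 8 genes in the 6 sorted libraries, with heterozygous (het) and null G3 groups side by side. Points are libraries, lines are means and bars are SDs; replicate 1 labelled null G3 is lowest for Nox1 at 0.251 RPKM and highest for Duox2 at 26.5 RPKM.

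Sorted and unsorted libraries list different genes and have different RPKM steps, so they may have been normalized separately and their levels were not tested against each other. Side by side, heterozygous Nox1 had a mean of 18.1 RPKM in sorted and 7.33 RPKM in unsorted libraries, and Cyba 6.15 and 23.4 RPKM. Gpx2 had 155 and 149.7 RPKM, and Duox2 16.2 and 13.6 RPKM. Ranked within each library among genes listed in both sets, Gpx2 stood at percentile 99.3 or higher in all 12. Nos2 stood between percentiles 56.7 and 72.5 in heterozygous sorted libraries and at 40.9 and 49.6 in unsorted ones, and rose to 86.2 and 85.4 in null G4.

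The last comparison tested whether the null effect differed between unsorted G4 crypts and sorted G3 cells, as a difference of within-set differences over all 12 libraries. Nos2 passed, with 3.19 (SE 0.41, 95% interval 2.28 to 4.09, adjusted p = 0.00861 in limma's fit), and was the 1 of 7 tested genes called, where 0.303% of all 11862 genes were. It did not pass after quantile normalization (2.28, adjusted p = 0.140), median scaling (2.39, 0.0691), with a pseudocount of 0.1 (4.77, 0.0624) or with any 1 heterozygous or null G4 unsorted library left out (0.0534 to 0.0665). The estimates for Nox1 (3.04), Duox2 (1.91), Duoxa2 (2.02) and Gpx2 (1.93) had adjusted p of 0.1903 each. Without replicate 1 labelled null G3, Nos2 (3.06, adjusted p = 0.00177), Duox2 (2.27, 0.00496), Duoxa2 (2.70, 0.0281) and Nox1 (1.63, 0.0484) passed, and the genes called went from 36 to 212. Without replicate 3 labelled null G3, 5 of the 7 genes passed and 3533 genes did. The all-gene median was 0.73. Generation, sorting and sex all differ along with this contrast and cannot be told apart in it.

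**Figure D5:**
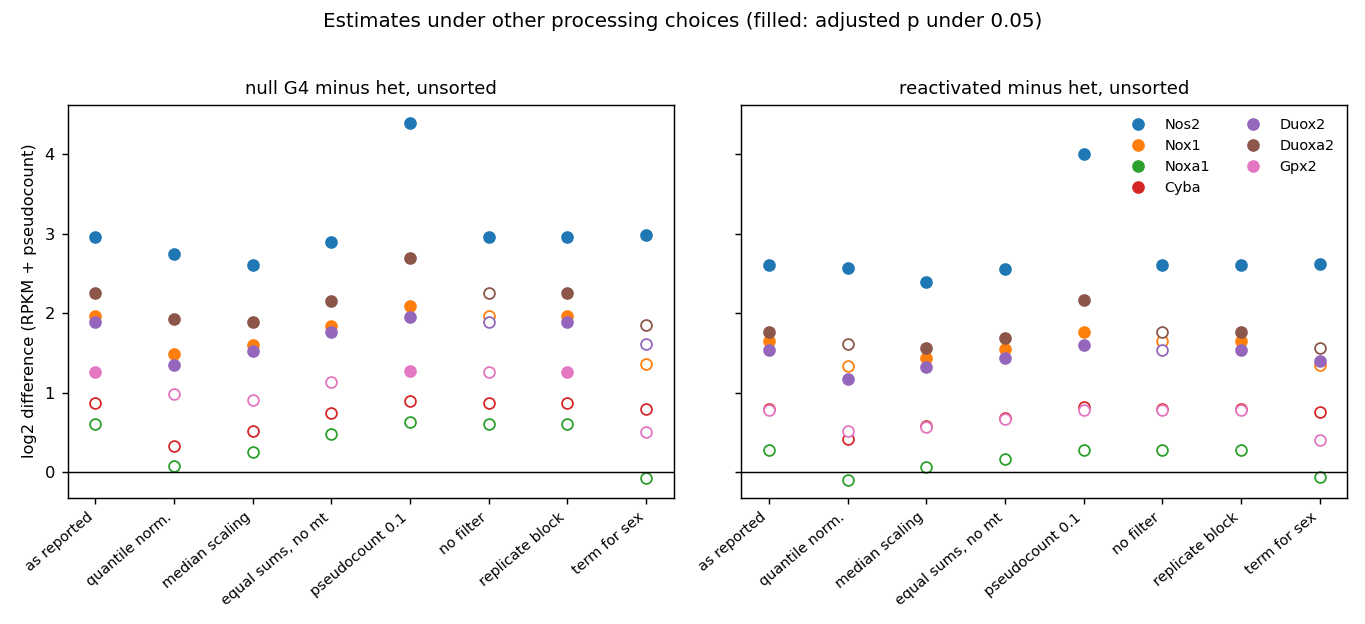
Log2 differences (vertical axis) of 7 genes under 8 processing choices (horizontal axis) for null G4 (left) and libraries labelled reactivated (right) against heterozygous unsorted crypts; filled points had an adjusted p under 0.05. Nos2 is filled under each choice shown, the other genes lose their calls without the filter, and with a pseudocount of 0.1 the scale itself is wider.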

How the data were processed

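RNA from 12 libraries was prepared with the Qiagen RNeasy Mini kit and a TruSeq RNA kit, per the labels' protocols. STAR 2.3.0e and mm10 are named in the submitters' processing notes; annotation, counter and strandedness were not given in the sources used here. From these steps the authors deposited 1 table of RPKM values, 28793 genes in all, of which 24551 have values in both the sorted and the unsorted libraries; 57 symbols occur more than once. Counts were not used here; of low values in unsorted libraries 78.0% to 80.9% lay within 0.05 reads of a whole number, too few to recover counts.

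The members and gene lists were chosen with earlier results of these data known. Values became log2(RPKM + 1). Testing needed 1 RPKM or more in 3 sorted libraries, or in 2 of the unsorted or combined ones, and was done with limma 3.58.1 (R 4.3.3; two-sided, moderated with a trend), fitted separately for the 6 sorted, the 6 unsorted and all 12 libraries, with Benjamini-Hochberg adjustment over all genes tested and calls at an adjusted p under 0.05. The fits were tested on simulated data. Some genes are not reported here. From each pathway list, up to 4 called genes of smallest adjusted p were named, or else up to 2 of smallest p; Irf1, Tnf, Ifng, Il1b and marker genes were named after their values were seen. For each gene the 5 most alike were taken by Pearson's r. Motifs were searched with Python 3.11.15. Alternatives were quantile normalization, median scaling, equal sums without mitochondrially encoded genes, a pseudocount of 0.1, no filter, a replicate block, the 2 compared groups alone, a term for sex and leaving out each library.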

Additional observations from a re-analysis of the deposited data

Results flagged for a closer look

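The null minus heterozygous difference of Nos2 was larger in unsorted generation 4 crypts than in sorted cells labelled null G3 by a test of the difference itself, at 3.19 on the log2(RPKM + 1) scale (SE 0.41, adjusted p = 0.00861 in limma's fit with Benjamini-Hochberg adjustment). In unsorted crypts both null values, 9.60 and 10.01 RPKM, lay above both heterozygous values, 0.240 and 0.549 RPKM. In sorted cells the values labelled null G3, 0.481 to 1.10 RPKM, lay within the heterozygous range of 0.523 to 2.14 RPKM except for the lowest. Quantile normalization, median scaling, a pseudocount of 0.1 or leaving out any 1 heterozygous or null G4 unsorted library ended the call. Generation, sorting and sex differ along with this contrast and cannot be told apart, and replicate 2 labelled null G3 had Tert within the heterozygous range.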

How the results depend on the processing

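Nos2 in null G4 or in libraries labelled reactivated, against heterozygous unsorted crypts, kept its call under each alternative run. Of 636 genes called in null G4, the count was 241 with quantile normalization, 322 with median scaling, 283 with equal sums, 21 without a filter, 1317 with the replicate block, 5683 with the 2 compared groups alone and 69 with a term for sex; leaving out 1 library gave 176 to 5693. Of the 8 genes, 5 were called, 1 without a filter, 1 with a term for sex, and 4 to 7 with a library left out.

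Between libraries labelled reactivated and null G4 the 3 genes called became 0 with quantile normalization, 0 without a filter, 9 with the replicate block, 8 with the 2 groups alone, 6 with a term for sex and 4 to 184 with a library left out. Against heterozygous, 146 became 94 with quantile normalization, 94 with median scaling (75.5% higher in both, against 88.4%), 22 without a filter, 264 with the replicate block and 120 to 2298 with a library left out. Of the 8 genes 4 were called, 2 with quantile normalization, 1 without a filter, 2 with a term for sex and 2 to 5 with a library left out; Nox1 also lost its call without heterozygous replicate 2 (adjusted p = 0.0547 in limma's fit). For the difference of null effects, 36 genes became 11 with quantile normalization, 16 with median scaling, 20 with equal sums, 11 with a pseudocount of 0.1, 70 without a filter, 18 with the replicate block and 8 to 3533 with a library left out. Of the 8 genes 1 was called, 0 with quantile normalization, 0 with median scaling, 0 with the pseudocount of 0.1 and 0 to 5 with a library left out.

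Signs that turned belonged to values that missed the threshold. In sorted cells Duox2 (-0.03) was 0.32 with quantile normalization, 0.48 with median scaling, 0.55 with equal sums and -0.39 to 0.21 with a library left out; Cyba was 0.026 with median scaling, Duoxa2 -0.45 to 0.75 and Nox1 -1.87 to 0.33 with a library left out. Noxa1 was -0.074 with a term for sex in null G4 against heterozygous, and in libraries labelled reactivated -0.093 with quantile normalization, -0.065 with a term for sex and -0.065 to 0.62 with a library left out. Between libraries labelled reactivated and null G4, Cyba was 0.091 with quantile normalization, 0.071 with median scaling and -0.27 to 0.11 with a library left out, and Noxa1 was 0.0092 with a term for sex and -0.68 to 0.01 with a library left out. The causes were not tested. In both comparisons of libraries labelled reactivated, the term for sex gave the same all-gene median as leaving out 1 of that pair. There the term is no separate check. In sorted cells 0 genes were called in each alternative (smallest adjusted p 0.109, with the replicate block). Same-numbered sorted libraries had correlations of deviations of 0.0533, -0.0299 and -0.190, against -0.107 to 0.206 for different-numbered ones, so the same-numbered ones did not stand out. Same-numbered unsorted libraries had 0.219, -0.0691 and -0.124. Those cannot decide on pairing, because with 2 libraries per group different-numbered ones give the same values with the sign turned. With 1 unsorted library left out, the lone one of its group is assumed to vary like the others; 2 libraries per group limit every interval here.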
